A study of Mus musculus with 22 samples.

Results

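The genes described here encode the proteins of the cytosolic ribosome. Members were chosen by name: protein-coding mouse genes called Rpl or Rps with a number, together with Rpsa, Rplp0, Rplp1 and Rplp2, that stood in both count tables. The rule gave 82 of the 37991 genes in the larger table. Of these, 42 encode large subunit proteins, 31 encode small subunit proteins and 3 encode the stalk proteins (Rplp0, Rplp1 and Rplp2), which makes 76 canonical members. The remaining 6 are paralogues, second genes for a ribosomal protein: Rpl3l, Rpl7l1, Rpl10l, Rpl22l1, Rpl39l and Rps27l. Pseudogenes and the kinase genes with an Rps6k symbol were left out, and 5 symbols of the tables that fit the name were dropped as annotated pseudogenes, among them Rps4l.

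The libraries were made from mouse primordial germ cells (PGCs), which later give rise to eggs or sperm, after the cells had been sorted. The labels give matings of Tet1-heterozygous parents that both carried GOF18∆PE-EGFP, a Pou5f1 (Oct4) reporter, and groups named Tet1-WT and Tet1-KO at E10.5 (E, embryonic day) without separation by sex and at E12.5 and E14.5 for females and males. Tet1 encodes an enzyme that oxidises methylated cytosine. The allele and the deleted stretch were not given in the sources used here. Each of these 10 groups held 2 libraries, each from RNA of 2 to 6 pooled embryos. MF1 females mated with males of the same reporter gave 2 more wild-type libraries at E10.5, made from fewer cells with another RNA kit. The labels do not say whether the 2 libraries of a group came from different embryos, so the p-values measure the spread between these libraries, which may be technical.

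Total gene counts ran from 9616436 to 25899505 per library in the Tet1 cross and were 59415040 and 66924911 in the MF1 cross. Tet1 itself held 21 to 102 CPM (read counts scaled to a common library size, with TMM factors) in the 10 Tet1-KO libraries and 35.2 to 309 CPM in the 10 Tet1-WT libraries. The Tet1-KO libraries were lower at every stage and sex from E12.5 on, while at E10.5 the 2 genotypes overlapped. The 11 germ cell markers, summed, held 1463 to 1780 CPM in E10.5 Tet1-WT and 3998 to 11006 CPM in every other group of that cross, and none of the 11 was at 0 throughout a group. The second E12.5 female Tet1-WT library stood apart, with 1.84% of its counts on mitochondrially encoded protein genes against 2.98% to 4.89% in the other 19. Counts or medians of members and related genes that use it are therefore also given without it in several places. Those given only once rest on it. In bulk libraries such as these, fewer cells of a type and less RNA per cell cannot be told apart.

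Ribosomal proteins are needed in nearly equal numbers, and their genes are among the most active in dividing cells. Many of their mRNAs begin with a 5′ terminal oligopyrimidine (TOP) tract, a run of C and T bases at the start of the transcript through which mTOR and Larp1 set their translation. Several mammalian ribosomal proteins have a second, tissue-restricted gene. Rpl10l and Rpl39l are autosomal copies of the X-linked Rpl10 and Rpl39, known for their expression in the male germ line, where the X chromosome is silenced during meiosis.

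Start sites are shown first because TOP tracts lie there, a feature that the selection by name did not use. RefSeq (GRCm38.p6) gave promoter windows for 62 of the 82 members. The 30 bases from 10 before to 20 after the annotated start are written 5′ to 3′ on the coding strand, and capitals mark the longest run made of C and T only. Of the first 6, Rplp0, Rpl38, Rpl6, Rpl5 and Rps25 are canonical members named in the comparisons of stage or sex and Rps27 is the parent of Rps27l, Rpl39 and Rpl39l are a parent and its copy, and Rpl22l1 and Rpl7l1 are paralogues.
Rplp0 start (chr5:115559457-115559486, plus strand): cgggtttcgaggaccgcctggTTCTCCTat
Rpl38 start (chr11:114668570-114668599, plus strand): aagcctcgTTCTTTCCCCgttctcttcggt
Rps27 start (chr3:90213629-90213658, minus strand): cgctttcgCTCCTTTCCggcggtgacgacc
Rpl6 start (chr5:121204491-121204520, plus strand): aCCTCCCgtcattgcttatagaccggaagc
Rpl5 start (chr5:107900518-107900547, plus strand): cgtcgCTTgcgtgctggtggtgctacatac
Rps25 start (chr9:44407704-44407733, plus strand): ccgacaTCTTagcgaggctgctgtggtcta
Rpl39 start (chrX:37085203-37085232, minus strand): gctccgcctctagcgaCTTCTTCTaatcgc
Rpl39l start (chr16:10170218-10170247, plus strand): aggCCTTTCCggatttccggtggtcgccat
Rpl22l1 start (chr3:28805498-28805527, plus strand): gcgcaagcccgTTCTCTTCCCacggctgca
Rpl7l1 start (chr17:46782637-46782666, minus strand): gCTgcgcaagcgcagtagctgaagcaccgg

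The run reached 10 bases at Rpl38 and Rpl22l1 and 9 at Rps27, and it was 3 bases at Rpl5 and 2 at Rpl7l1. A run of at least 7 bases of C and T, read on the coding strand alone, lay in 31 of the 66 windows of canonical members (47%) and in 5891 of 32851 windows of all genes (17.9%). It lay in 3 of 8 windows of the paralogues. Annotated starts are often some bases away from the true start, so a window without a run says nothing of the transcript's first bases. Upstream, the 250 bases before the start held a median of 18 CG pairs in canonical members and 6 in all windows.

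The germline paralogues Rpl10l and Rpl39l had the largest changes between stages among members that passed the test, and their upstream windows are given because methyl groups on CG pairs are what Tet1 acts on. Capitals mark the CG pairs in the 250 bases before each start, of which Rpl10l has 8 and Rpl39l has 12.
Rpl10l upstream (chr12:66284402-66284651, minus strand): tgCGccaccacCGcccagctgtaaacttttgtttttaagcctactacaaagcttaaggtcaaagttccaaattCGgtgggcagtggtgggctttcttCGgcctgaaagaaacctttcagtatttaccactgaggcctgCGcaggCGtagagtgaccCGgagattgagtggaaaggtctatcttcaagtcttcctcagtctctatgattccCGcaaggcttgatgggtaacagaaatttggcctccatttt
Rpl39l upstream (chr16:10169978-10170227, plus strand): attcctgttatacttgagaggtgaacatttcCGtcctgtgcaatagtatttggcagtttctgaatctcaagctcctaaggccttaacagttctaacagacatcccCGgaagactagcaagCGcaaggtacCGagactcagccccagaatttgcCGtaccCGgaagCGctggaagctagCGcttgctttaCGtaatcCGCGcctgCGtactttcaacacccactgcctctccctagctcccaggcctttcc
The parents Rpl10 and Rpl39 hold 13 and 12 CG pairs in the same window. Over the coding sequence Rpl10l shares 84.7% of its bases with Rpl10, and Rpl39l shares 85% with Rpl39. How well reads of each copy and its parent were told apart was not tested.

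Ribosomal protein genes took a similar part of the RNA in every group of the Tet1 cross. Their summed counts made up 5.96% to 9.67% of all gene counts over the 20 libraries, with a median of 7.97%. In E10.5 Tet1-WT the share was 7.35% and 6.92%, and in E10.5 Tet1-KO it was 9.67% and 7.75%. The lowest value belonged to the second E12.5 female Tet1-WT library, and the first library of that group was at 8.66%, so this group spanned most of the range on its own. At E14.5 the male Tet1-WT libraries (9.41% and 8.80%) lay above the male Tet1-KO libraries (6.80% and 7.05%), while the female Tet1-WT libraries (7.78% and 8.17%) overlapped the female Tet1-KO libraries (9.11% and 7.93%). The ratio of large subunit (stalk included) to small subunit counts moved little, from 1.52 to 1.67 over the 20 libraries.

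**Figure D1:**
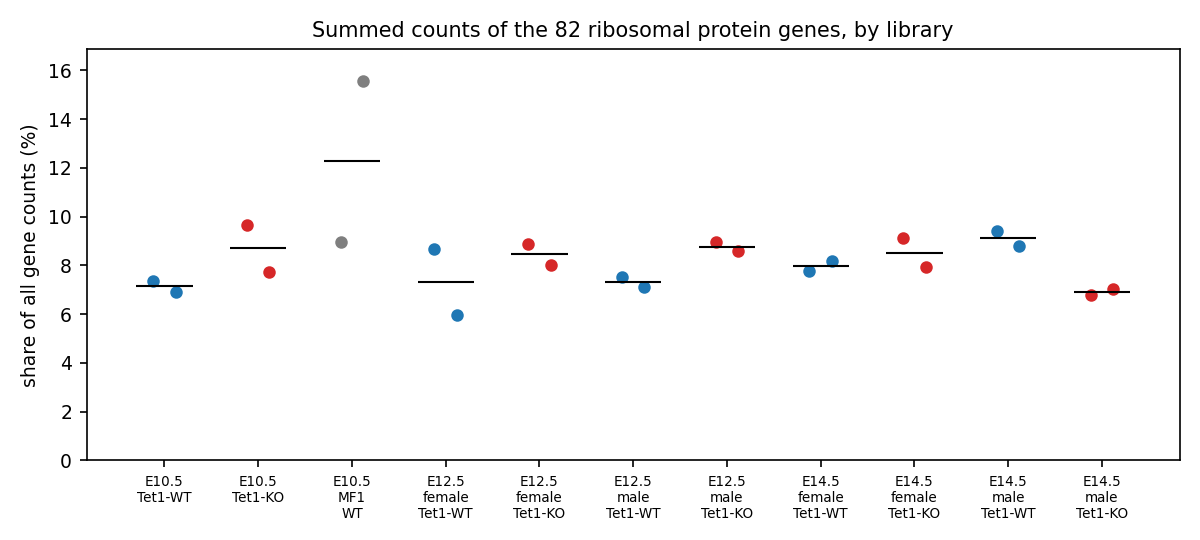
Share of all gene counts on the 82 ribosomal protein genes (percent, vertical axis) in each library, by group; blue points are Tet1-WT, red Tet1-KO and grey MF1 wild type, and black lines are means of 2 libraries. The 20 libraries of the Tet1 cross sit between 5.96% and 9.67%, and the second MF1 library is at 15.6%.

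Levels differed widely between members when divided by transcript length. The length was that of a single annotated transcript per gene, the longest of its best-ranked ones. Averaged over the Tet1 cross, Rpl41 had 3458 CPM per kilobase, Rps18 3276 and Rpl14 2684. At the other end of the canonical members Rps15a had 126 and Rpl22 162 CPM per kilobase. Undivided, Rps15a had means of 483 CPM in E10.5 Tet1-WT and 837 CPM in E14.5 female Tet1-WT. The order per kilobase therefore depends on the transcript taken, and other transcripts were not tried. The paralogues Rpl39l (86.8), Rpl10l (46.7) and Rpl3l (0.873) were lowest of all 82. Near-identical copies elsewhere in the genome, at 95% identity or more, took 42.6% of the family's reads for Rps2, 37.5% for Rps3a1 and 26.8% for Rpsa, so the levels of these 3 are uncertain. Across the 20 libraries each canonical member's log2 level spanned between 0.51 and 1.85, with a median span of 1.04. The canonical members moved largely together. The correlation of each with the mean of the others had a median of 0.835 and was above 0.5 for 67 of 76. Numbers of members called or not overlapping between groups, given below, are therefore not numbers of independent results.

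The germline paralogues Rpl10l and Rpl39l were close to absent from E10.5 Tet1-WT and present in every later group. Rpl10l, whose product replaces Rpl10 in spermatocytes, was at 2.66 and 5.24 CPM in the E10.5 Tet1-WT libraries, at 49.4 and 48.7 CPM in E12.5 female Tet1-WT and at 54.4 and 85.0 CPM in E12.5 male Tet1-WT. No library at E12.5 came near the E10.5 Tet1-WT values. The E10.5 libraries of the MF1 cross, described below, were higher than those of E10.5 Tet1-WT. The rise was 3.63 ± 0.4 (SE) on the log2 scale in females (edgeR quasi-likelihood test, adjusted p = 3.15e-05) and 4.14 ± 0.41 in males (adjusted p = 1.53e-05). Rpl39l was at 5.54 and 10.3 CPM in E10.5 Tet1-WT, at 88.4 and 78.6 CPM in E12.5 females and at 71.0 and 89.6 CPM in E12.5 males. Its rise was 3.39 ± 0.24 in females (adjusted p = 4.52e-07) and 3.34 ± 0.24 in males (adjusted p = 8.91e-07). Both rises stayed under an adjusted p of 0.05 in each sex whichever library was left out.

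The parents showed no comparable step. Rpl10 was at 698 and 742 CPM in E10.5 Tet1-WT and at 597 and 577 CPM in E12.5 males, and neither parent was called in either sex. Per kilobase, Rpl10l made up 0.317% and 0.587% of the Rpl10 and Rpl10l pair at E10.5 in Tet1-WT and 7.09% to 11% in E12.5 males. The highest share, 16.6%, was in an E14.5 male Tet1-WT library. Rpl39l made up 1.23% to 2.47% of its pair in E10.5 Tet1-WT and 17.7% to 24.1% in E14.5 males of that genotype. In E14.5 females it was at 5.99% and 6.14%. Germ cell markers were also lower in the E10.5 Tet1-WT libraries, summed at most 1780 CPM at E10.5 and at least 5024 CPM at E12.5. Whether this reflects fewer germ cells or lower marker levels in them cannot be told. The 15 mesenchyme markers overlapped, at 1828 to 2139 CPM at E10.5 against 888 to 2117 CPM at E12.5. The part of these values in the paralogues' rise was not tested.

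**Figure D2:**
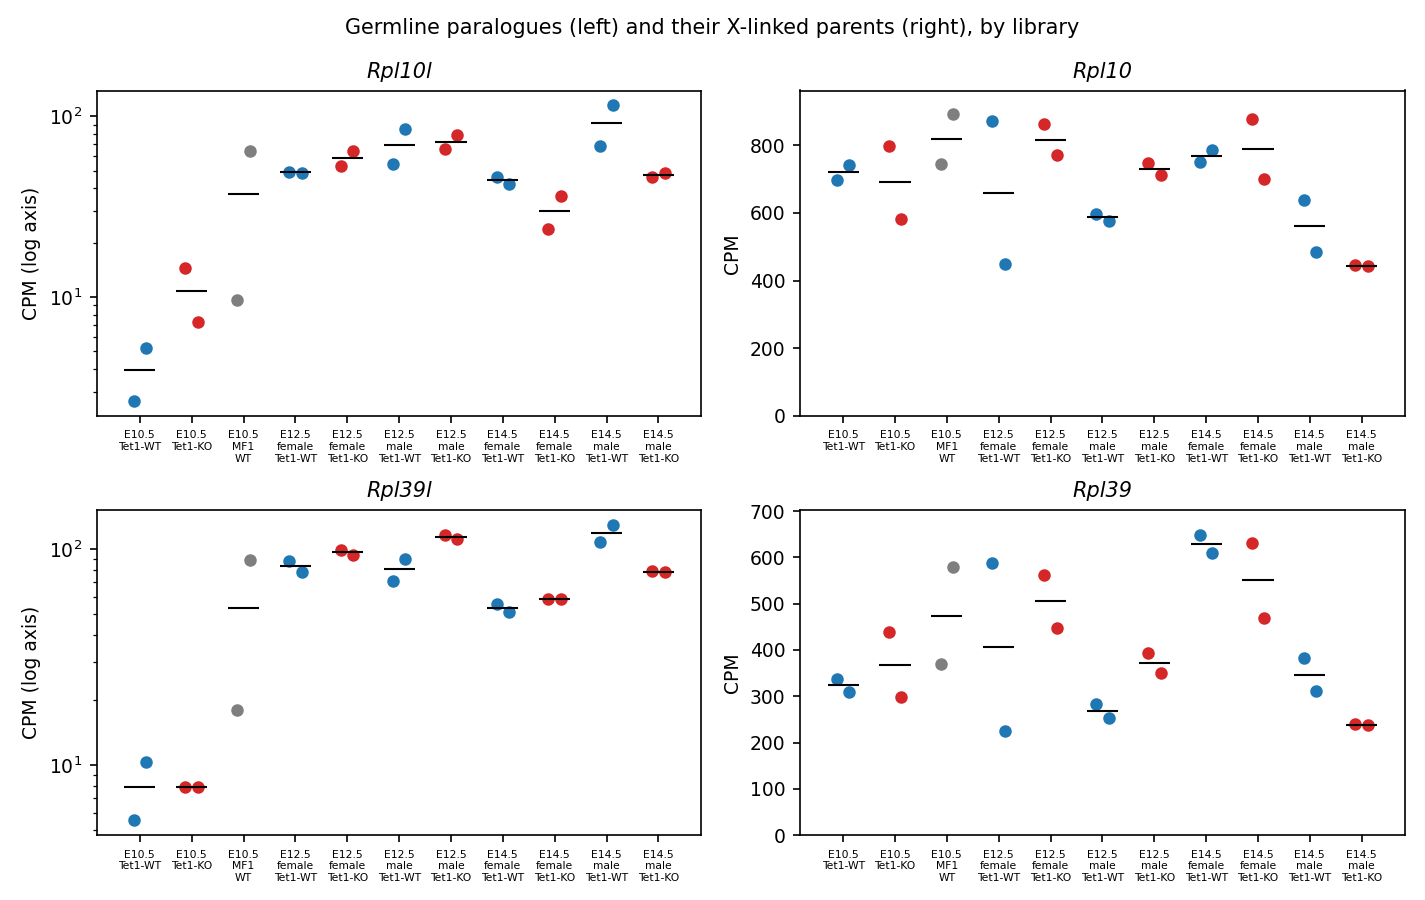
Level in CPM of the paralogues Rpl10l and Rpl39l (left, log axis) and of their X-linked parents Rpl10 and Rpl39 (right, linear axis) in each library; blue is Tet1-WT, red Tet1-KO, grey MF1, and black lines are means of 2 libraries. Rpl10l lies at 2.66 and 5.24 CPM in E10.5 Tet1-WT and at 42.5 CPM or more in all later Tet1-WT libraries.

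Apart from the paralogues, few members changed from E10.5 to E12.5 in Tet1-WT. In females 5 of 82 members were higher and 1 was lower, against 8.81% and 4.83% of all 17567 genes tested, and in males 2 were higher and none lower, against 6.4% and 3.05%. Both shares in the members are near or under those of all genes. The other female calls were Rpl23 (log2 change 0.57), Rps4x (0.62), Rps27l (0.68) and Rps3a1 (-0.68), and each was lost when at least 1 of the 4 libraries was left out. Without the second E12.5 female library 8 members were higher and none lower, and without the first 2 were higher and 16 lower. The median change over the members was 0.06 in females and 0 in males, beside 0.03 and 0.02 over all genes. With each of the 4 libraries left out in turn, the female median ran from -0.35 to 0.3.

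Of the other paralogues, Rpl22l1, the second gene for the RNA-binding protein of Rpl22, gave between 60.8% and 83.3% of the pair per kilobase over the Tet1 cross. That order rests on the transcript lengths taken. Undivided by length, mean CPM was higher for Rpl22 in every group of the cross except E14.5 male Tet1-WT. The means of Rpl22 and Rpl22l1 were 318 and 223 CPM in E10.5 Tet1-WT, and 351 and 374 CPM in E14.5 male Tet1-WT. Rps27l, a p53-responsive copy of Rps27, gave 18.4% to 40.4% of its pair. Rpl7l1, a nucleolar relative of Rpl7, gave 3.09% to 10.9%. Rpl3l, the copy of Rpl3 known from heart and skeletal muscle, reached at most 5.47 CPM and was at 0 in 5 libraries of the cross.

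From E12.5 to E14.5 in Tet1-WT, the share of members called as higher in males was above that of all genes. In males 13 of 82 members were higher and none was lower (4.92% and 7.75% of all genes), and the median change was 0.47 beside 0 over all genes. Among these Rpl22l1 rose most, from 177 and 168 CPM at E12.5 to 328 and 421 CPM at E14.5 (log2 change 1.12 ± 0.2, adjusted p = 0.0017). Rps6, a target of S6 kinase, went from 984 and 955 CPM to 1481 and 1506 CPM (0.62, adjusted p = 0.0154). Rpl6, Rpl34, Rpl26 and Rpl35a, all of the large subunit, rose by between 0.55 and 0.63. The 2 stages did not overlap for 75 of the 82 members, higher at E14.5 in each case, against 28.3% of all genes. Leaving out any 1 of the 4 libraries left 1 or 2 members called, with Rpl22l1 called each time, and the median stayed between 0.42 and 0.54.

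In Tet1-WT females 10 members were higher and 4 lower from E12.5 to E14.5 (11.3% and 14% of all genes). The 4 that fell were Rpl5, part of the 5S ribonucleoprotein that binds Mdm2 (log2 change -0.71, adjusted p = 0.00144), the stalk base Rplp0 (-0.69, adjusted p = 0.00496), Rps25, needed for initiation at some internal ribosome entry sites (-0.54, adjusted p = 0.0125), and Rpl39l (-0.64, adjusted p = 0.0434). Rpl5 went from 1472 and 1706 CPM to 942 and 996 CPM. Rplp0 went from 1996 and 1397 CPM to 996 and 1109 CPM. Both pairs of stages were separate, and the 10 rises, that of Rpl32 (0.80) among them, rested on the second E12.5 library: without it no member was higher and 5 were lower, and without the first E12.5 library 39 were higher and 2 lower. Rpl5 was the one member called whichever library was left out. Scaled by plain library totals instead of TMM, 4 were higher and 5 lower.

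Tested directly, the change from E12.5 to E14.5 was more positive in males than in females of Tet1-WT for 7 members and more negative for none, against 6.26% and 5.85% of all genes, so the count is close to the background. These were Rpl5 (difference of log2 changes 1.22 ± 0.2, adjusted p = 0.0011), Rpl39l (1.21, adjusted p = 0.0192), Rplp0 (0.85, adjusted p = 0.0227), Rps25 (0.76, adjusted p = 0.026), Rps14 (0.67, adjusted p = 0.0307), Rpl6 (0.75, adjusted p = 0.0437) and Rpl22l1 (0.88, adjusted p = 0.0478). Rpl5 alone stayed called without each of the 8 libraries in turn. Without the second E12.5 female library 18 members were called, each more positive in males, and without the first 5 were more positive and 2 more negative.

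In Tet1-KO the counts called over the same step were close to those of all genes, while the medians were -0.13 in females and -0.35 in males, beside -0.01 and 0.01 over all genes. In females 7 members fell and none rose (7.02% and 4.02% of all genes): Rplp0 (-1.07 ± 0.16, adjusted p = 0.000852), Rpl7l1 (-0.95), Rpl38, which is mutated in Tail-short mice (-0.89), Rpl5 (-0.62), Rps25 (-0.63), Rpl4 (-0.47) and Rpl39l (-0.72). Rplp0 went from 2495 and 2364 CPM to 1219 and 1094 CPM and was the one called without each library in turn. In males 4 fell and 1 rose (4.87% and 5.5% of all genes). Rps3a1 fell by 1.47 (adjusted p = 0.000741), from 1819 and 1986 CPM to 719 and 653 CPM, and by 0.58 when its near-identical copies were added. Rpl7l1 rose, from 346 and 370 CPM to 631 and 659 CPM (0.85, adjusted p = 0.00699). Scaled by library totals, 10 members fell in males and 1 rose. Whether the step differed between the genotypes was not tested within a sex. Over this step 5 of 11 germ cell, 4 of 15 mesenchyme and 3 of 11 endothelial and blood markers fell in Tet1-KO females. In Tet1-KO males 7 of 15 mesenchyme markers fell and 1 rose, and 2 of 6 supporting cell markers tested rose. The part of these markers in the members' values was not tested.

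Male and female PGCs differed most at E14.5. In Tet1-WT 17 members were higher and 1 was lower in males, against 14% and 14.1% of all genes. Rplp0 was at 996 and 1109 CPM in females and at 2598 and 2118 CPM in males (log2 difference 1.16 ± 0.16, adjusted p = 7.36e-05). Rpl5 was at 942 and 996 CPM in females and 1945 and 1758 CPM in males (0.93, adjusted p = 0.000144). Rps25 was at 658 and 649 CPM against 1217 and 1160 CPM (0.86, adjusted p = 0.000412). For these 3 genes the lowest male library stood well above the highest female library. Rpl7l1 (1.21), Rpl39l (1.15), Rpl6 (0.78) and Rpl38 (0.90) were also higher in males, and Rps27l was lower (-0.96, adjusted p = 0.00263). These 8 stayed called without each of the 4 libraries in turn, and the other 10 did not.

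In Tet1-KO at E14.5, 5 members were higher and 8 lower in males, against 11.6% and 7.43% of all genes. The higher ones were Rpl7l1 (158 and 202 CPM in females, 631 and 659 CPM in males, log2 difference 1.84 ± 0.18, adjusted p = 9.96e-06), Rpl4 (0.62), Rplp0 (0.82), Rpl5 (0.55) and Rps25 (0.52). The lower ones were Rps27l (-0.93), the small subunit genes Rps16 and Rps29, the stalk gene Rplp1 (-0.75) and all 4 X-linked members. Rpl4, Rpl7l1 and Rplp0 stayed called without each library in turn. By library totals 3 were higher and 23 lower. No member's sex difference at E14.5 was called as differing between the genotypes (0 of 82, against 1.43% of all genes), 5 had an unadjusted p under 0.05 and DESeq2 called 2. Taking both genotypes together, 13 members had all 4 male libraries above all 4 female ones and 9 had them below, against 16.9% and 15% of all genes tested.

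**Figure D3:**
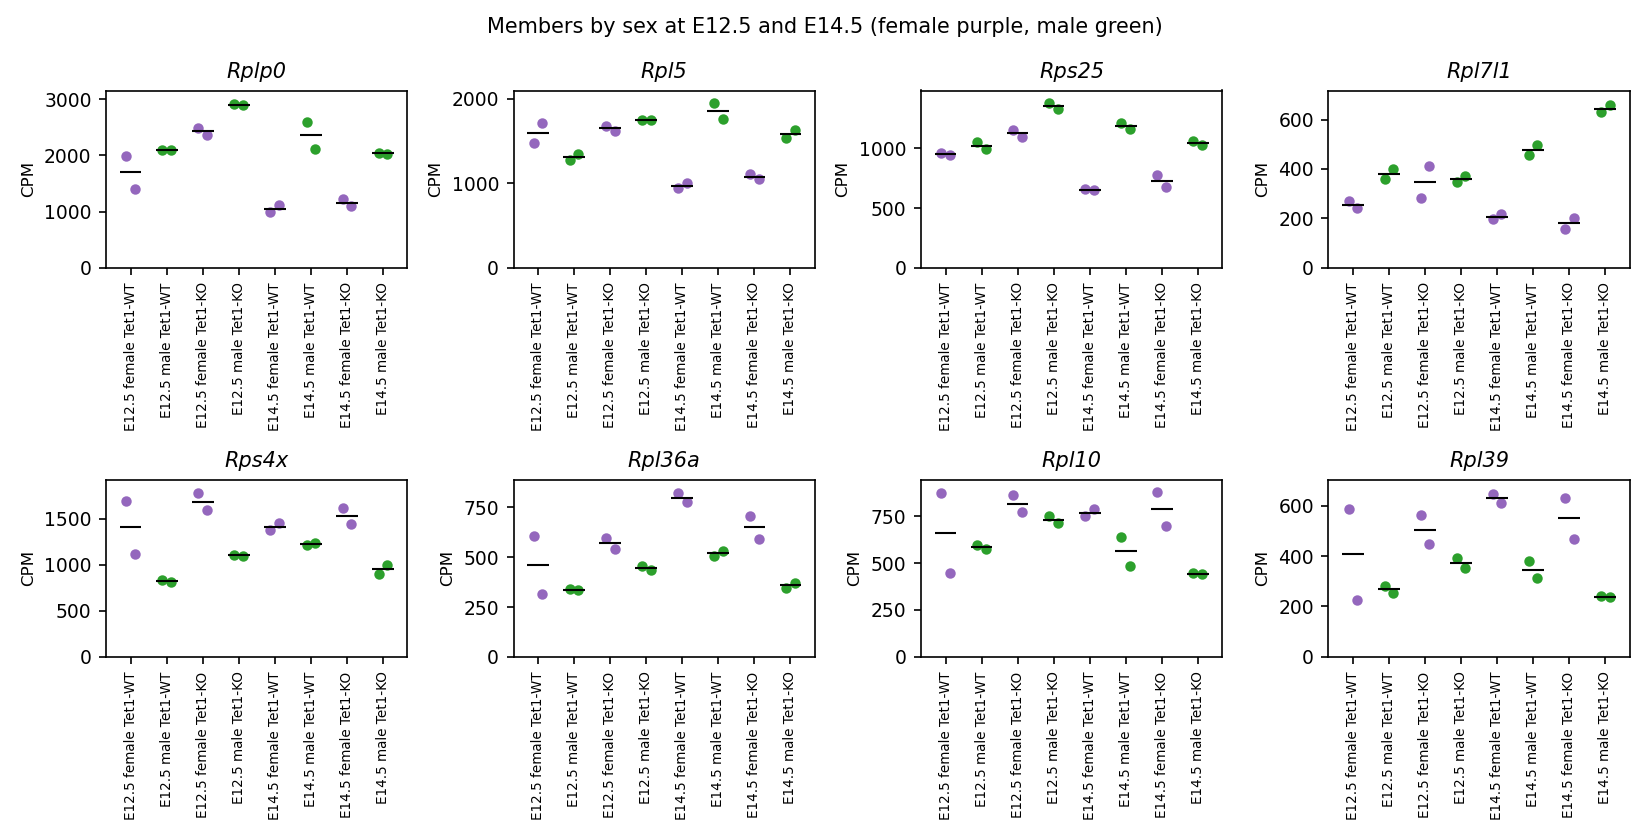
CPM of 8 members in each library by sex (female purple, male green), stage and genotype, with black lines for the mean of 2 libraries. At E14.5 Rplp0, Rpl5, Rps25 and Rpl7l1 (top) lie higher in males in both genotypes, and the X-linked Rps4x, Rpl36a, Rpl10 and Rpl39 (bottom) lie lower.

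The 4 members on the X chromosome, Rpl10, Rpl36a, Rpl39 and Rps4x, had lower values in males than in females in each sex comparison. Female PGCs reactivate their silent X chromosome during this period, and males have a single X. In E14.5 Tet1-KO all 4 were lower in males: Rpl39 (-1.21, adjusted p = 0.0139), Rpl36a (-0.86, adjusted p = 0.0221), Rpl10 (-0.83, adjusted p = 0.024) and Rps4x (-0.68, adjusted p = 0.0153). Rpl39 was at 632 and 469 CPM in females and at 240 and 237 CPM in males. Rps4x, the small subunit protein whose human counterpart escapes X inactivation, was at 1610 and 1444 CPM in females and at 901 and 999 CPM in males. Each of the 4 lost its call when at least 1 library was left out. In E14.5 Tet1-WT the sex differences were -0.86 for Rpl39 (adjusted p = 0.0502), -0.62 for Rpl36a, -0.45 for Rpl10 and -0.20 for Rps4x, none called. The male libraries lay below the female ones for all 4, which was so for 35.2% of all genes.

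In the 3 sex comparisons, the 4 X-linked members had medians of -0.52 at E12.5 in Tet1-WT, -0.54 at E14.5 in Tet1-WT and -0.84 at E14.5 in Tet1-KO. The 72 autosomal canonical members had medians of -0.02, 0.19 and -0.18, so the autosomal median was above 0 at E14.5 in Tet1-WT alone. Without the second E12.5 female library the E12.5 medians were -0.93 for the X-linked and -0.30 for the autosomal members. No autosomal canonical member lay below all 4 X-linked ones in any of the 3. The ranges still overlapped: 13, 8 and 1 autosomal members lay below the highest of the 4, in the same order of comparisons. Over the 725 X-linked genes tested, the medians were -0.28, -0.62 and -0.37, so a lower male level was common to the chromosome at these stages. At E12.5 none of the 82 members was called between the sexes of Tet1-WT (0.575% of all genes were), 5 had an unadjusted p under 0.05 and DESeq2 called 2. Without the first E12.5 female library 6 members were called higher in males (median 0.34), and without the second 1 was called lower (median -0.31). Rps4x was the nearest, at 1692 and 1118 CPM in females and 836 and 811 CPM in males (-0.77, adjusted p = 0.0685), and Rpl7l1 was at 0.57 (adjusted p = 0.16). Rps4l, left out as a pseudogene, was at 242 to 1160 CPM over the 20 libraries.

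Between Tet1-KO and Tet1-WT, members passed the main edgeR test at E10.5 alone, in a number close to the background. At E10.5, 3 of 82 members were higher in Tet1-KO and none lower (4.1% and 4.7% of all genes). The members' median in E12.5 males, given below, was larger than at E10.5, so the calls do not set E10.5 apart. Rpl4 went from 2277 and 2526 CPM in Tet1-WT to 3819 and 3453 CPM in Tet1-KO (0.60 ± 0.12, adjusted p = 0.00781). Rpl10l went from 2.66 and 5.24 CPM to 14.46 and 7.29 CPM (1.45, adjusted p = 0.0316), and Rpl13a from 1423 and 1325 CPM to 2137 and 1673 CPM (0.47, adjusted p = 0.0385). The genotypes did not overlap for these 3 genes, nor for 44 of the 82 members in all, each higher in Tet1-KO, against 20.1% of all genes. Each call was lost without at least 1 library, the number called ran from 1 to 15 over the 4 omissions, and no member was called in a fit of the 4 libraries alone. The median over the members was 0.32 (0 over all genes), and 0.07 without the first Tet1-KO library. Germ cell markers held 1463 to 1780 CPM in Tet1-WT and 3998 to 6187 CPM in Tet1-KO with 8 of 11 called higher, and mesenchyme markers held 1828 to 2139 CPM against 433 to 971 CPM with 2 of 15 called lower. Their part in the values of the members was not tested.

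At E12.5 the members had higher values in Tet1-KO in both sexes, and none passed the test. In males the median was 0.43 beside 0 over all genes, with all 76 canonical members above 0, and 74 of the 76 did not overlap between genotypes, against 26.7% of all genes. By edgeR 0 of 82 members were called (1.06% of all genes were), 44 had an unadjusted p under 0.05, DESeq2 called 2 and a fit of the 4 libraries alone called 49. The largest differences were those of Rps3a1 (1081 and 1108 CPM against 1819 and 1986 CPM, 0.80, adjusted p = 0.0761) and Rps13 (0.62, adjusted p = 0.237). The level of Rps3a1 is uncertain because of its near-identical copies. At the other end were Rpl3l (-2.85 ± 1.9, adjusted p = 0.525) and Rpl7l1 (-0.08, adjusted p = 0.894). In females the median was 0.33 (-0.02 over all genes) and 81 of 82 members were above 0, with 0 called (1.29% of all genes), 34 not overlapping and higher in Tet1-KO (22.8% of all genes), 17 at an unadjusted p under 0.05 and 2 by DESeq2. Without the second Tet1-WT library the female median was 0.11 with none called, and without the first it was 0.73 with 41 called.

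The female extremes were Rpl3l (0.81) and Rps3a1 (0.71, adjusted p = 0.118) on the higher side, and Rpl35 (-0.10) and Rpl23 (0.00) on the lower. The same limit on Rps3a1 from its copies applies. At E12.5 mesenchyme markers were lower in Tet1-KO, at 49.7 to 53.9 CPM against 888 to 1281 CPM in females with 9 of 15 called, and at 188 to 289 CPM against 1340 to 2117 CPM in males with 7 of 15 called. The 8 supporting cell markers held 4 CPM in both female Tet1-KO libraries and 17.1 to 17.7 CPM in Tet1-WT, and in males 10.7 to 16.6 CPM against 45.6 to 57.2 CPM in Tet1-WT. The 6 early response and heat shock genes used as signs of handling were at 27.9 to 38.5 CPM in male Tet1-KO and 170 to 395 CPM in male Tet1-WT. The part of these differences in the members' values was not tested.

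At E14.5 the direction in males was opposite. The median of the members was -0.38 in Tet1-KO males beside 0.02 over all genes, 72 of 76 canonical members lay lower without overlap, against 18.7% of all genes, and 1 canonical member was above 0. By edgeR 0 of 82 were called (0.102% of all genes were), 32 had an unadjusted p under 0.05 and DESeq2 called 4. Rpl10l went from 68.9 and 115 CPM in Tet1-WT to 46 and 48.4 CPM in Tet1-KO (-0.96, adjusted p = 0.327), and Rpl3l was at -1.02 ± 1.56. Rpl7l1 (0.43, adjusted p = 0.389) and Rpl4 (0.12) were highest. The median stayed between -0.45 and -0.35 over the 4 omissions. Mesenchyme markers were low in both genotypes there, at 105 to 116 CPM in Tet1-WT and 98.6 to 132 CPM in Tet1-KO, and germ cell markers overlapped. Supporting cell markers were at 16.7 to 17.8 CPM in Tet1-WT and 36.3 to 56.2 CPM in Tet1-KO, and the 11 endothelial and blood cell markers at 85.7 to 153 CPM and 158 to 224 CPM, with no marker of either list called. Their part in the members' values was not tested.

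In E14.5 females the members' values lay around 0. Their median was -0.06 beside -0.03 over all genes, 0 of 82 were called (6.65% of all genes were), and 0 had an unadjusted p under 0.05, with none called by DESeq2. Toward the extremes were Rps13 (0.30) against Rpl3l (-1.19) and Rpl10l (-0.57, 46.4 and 42.5 CPM in Tet1-WT against 23.7 and 36.1 CPM in Tet1-KO). The 8 germ cell markers called there were all higher in Tet1-KO, out of 11, although their sum was 5404 to 5786 CPM in Tet1-KO and 5666 to 5877 CPM in Tet1-WT, and the part of these markers was not tested. In the direct test of the Tet1-KO effect between the sexes at E14.5, no member passed, with a median difference, male minus female, of -0.34 beside 0.11 over all genes. The nearest were Rps3a1 (-1.02, adjusted p = 0.0952) and Rps2 (-0.96, adjusted p = 0.167), and on the other side Rpl7l1 (0.63, adjusted p = 0.216) and Rpl4 (0.22). The levels of Rps3a1 and Rps2 are uncertain because of their near-identical copies.

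**Figure D4:**
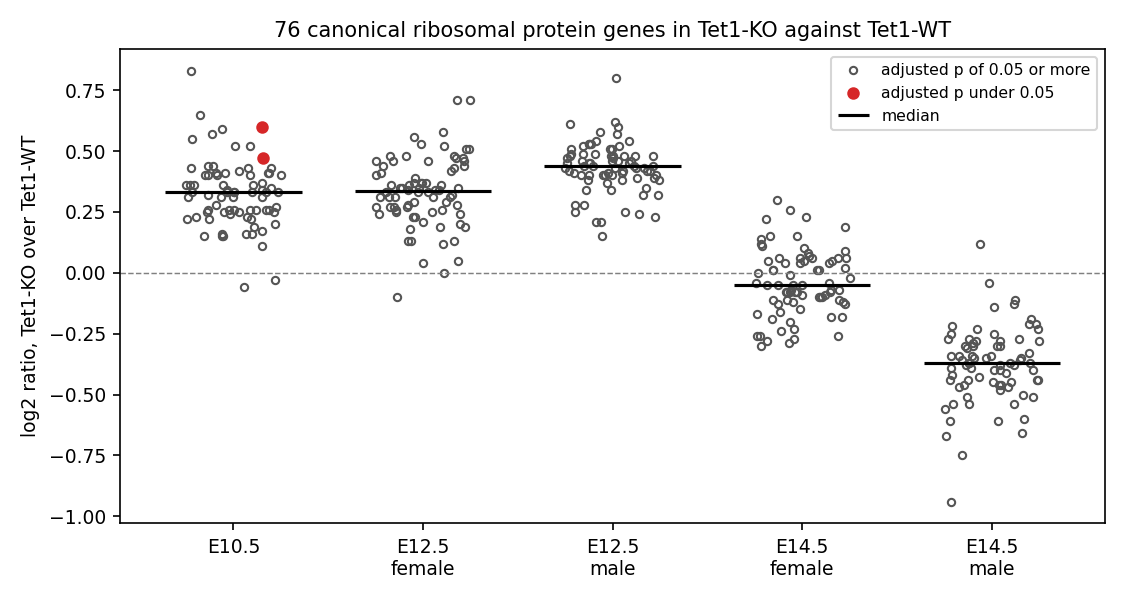
Log2 ratio of Tet1-KO over Tet1-WT (vertical axis) for the 76 canonical members in each stage and sex; filled red points passed an adjusted p of 0.05, open points did not, and black lines are medians. The medians are 0.33, 0.34 and 0.44 at E10.5, E12.5 female and E12.5 male, and -0.05 and -0.37 at E14.5 female and male.

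The MF1 cross at E10.5 gave the 2 most different libraries for these genes. Ribosomal protein genes made up 8.95% of counts in the first and 15.6% in the second, and near-identical copies outside the members 0.429% and 0.813%, against 0.144% to 0.289% in the Tet1 cross. Against E10.5 Tet1-WT, 0 of the 81 members tested were called (0.606% of 15500 genes were), 31 had an unadjusted p under 0.05 and DESeq2 called 21. The median was 0.88 beside -0.05 over all genes. Rpl10l was at 9.69 and 64.3 CPM and Rpl39l at 18 and 88.5 CPM. For both genes the first MF1 library lay between E10.5 and E12.5 Tet1-WT. The second MF1 library lay within the range of the E12.5 Tet1-WT libraries, although the crosses were scaled in separate fits. The fitted differences from E10.5 Tet1-WT were 3.23 and 2.75, with edgeR adjusted p of 0.166 and 0.164. Rpl29 (-0.38) and Rpl22l1 (0.13) were at the other end. With the second MF1 library alone 77 members were called, and with the first alone 28. Cell-type markers differed as well: mesenchyme markers held 60 to 77.5 CPM in the MF1 libraries against 1856 to 2122 CPM in Tet1-WT with 5 of 15 called lower, and germ cell markers 5617 to 6024 CPM against 1451 to 1808 CPM with none called. Their part in the members' values was not tested. Cross, RNA kit, cell number and sequencing depth cannot be told apart here.

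Genes that make ribosomes, as distinct from those that form them, differed more between the sexes at E14.5. Of 59 ribosome biogenesis genes tested, 32 were higher and 6 lower in males of Tet1-WT (median 0.89, beside 0 over all genes), and 33 were higher and 1 lower in Tet1-KO (median 0.80, beside 0.03). Over all genes 14% were higher and 14.1% lower in Tet1-WT, and 11.6% and 7.43% in Tet1-KO. Mybbp1a, a nucleolar regulator of ribosomal RNA synthesis, was at 135 and 152 CPM in Tet1-WT females and at 855 and 991 CPM in males (2.69 ± 0.19, adjusted p = 4.07e-07). Rrp9, a protein of the U3 particle that processes ribosomal RNA, was at 7.5 and 11 CPM in females and 84.5 and 98.1 CPM in males (3.32, adjusted p = 5.75e-07). Rsl24d1, a factor of large subunit assembly, differed by 1.64. In Tet1-KO the smallest p belonged to Mybbp1a (2.06), Bop1 (1.87) and the polymerase subunit Polr1c (1.44). In both genotypes the median of the canonical ribosomal proteins, 0.18 and -0.19, was lower than that of the biogenesis list.

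Between E12.5 and E14.5, 24 of the 59 biogenesis genes fell and 6 rose in Tet1-WT females (median -0.46, beside -0.07 over all genes), against 14% and 11.3% of all genes. In Tet1-KO females 32 fell and none rose (median -0.71, beside -0.01), against 7.02% and 4.02% of all genes, with the smallest p for Mybbp1a (-1.73 and -1.51) and Rsl24d1 (-1.20 and -1.03). In males 10 were higher and 1 lower in Tet1-WT (median 0.13), against 4.92% and 7.75% of all genes. In Tet1-KO males 5 were higher and 2 lower (median 0.03), against 5.5% and 4.87%. The difference between the sexes of Tet1-WT was called for 21 of the 59, with 19 more positive in males and 2 more negative (6.26% and 5.85% of all genes). Without the second E12.5 female Tet1-WT library, 22 fell and 5 rose in Tet1-WT females, and the sex difference was called for 18, each more positive in males. From E10.5 to E12.5, 12 biogenesis genes were higher and none lower in males, against 6.4% and 3.05% of all genes. The smallest p was that of the RNA polymerase I subunit Polr1b (1.51). In females 9 were higher and 4 lower, against 8.81% and 4.83% of all genes. The female median was 0.31, and 0.28 without the second E12.5 library. In Tet1-KO at E10.5, 10 were higher and none lower, against 4.1% and 4.7% of all genes. The smallest p belonged to Nop14 (0.82), Rrn3 (0.87) and Bysl (0.80). At E12.5 the one called gene over both sexes was Bysl in females (0.99). Without the second E12.5 female Tet1-WT library it was at 0.95 and no longer called.

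**Figure D5:**
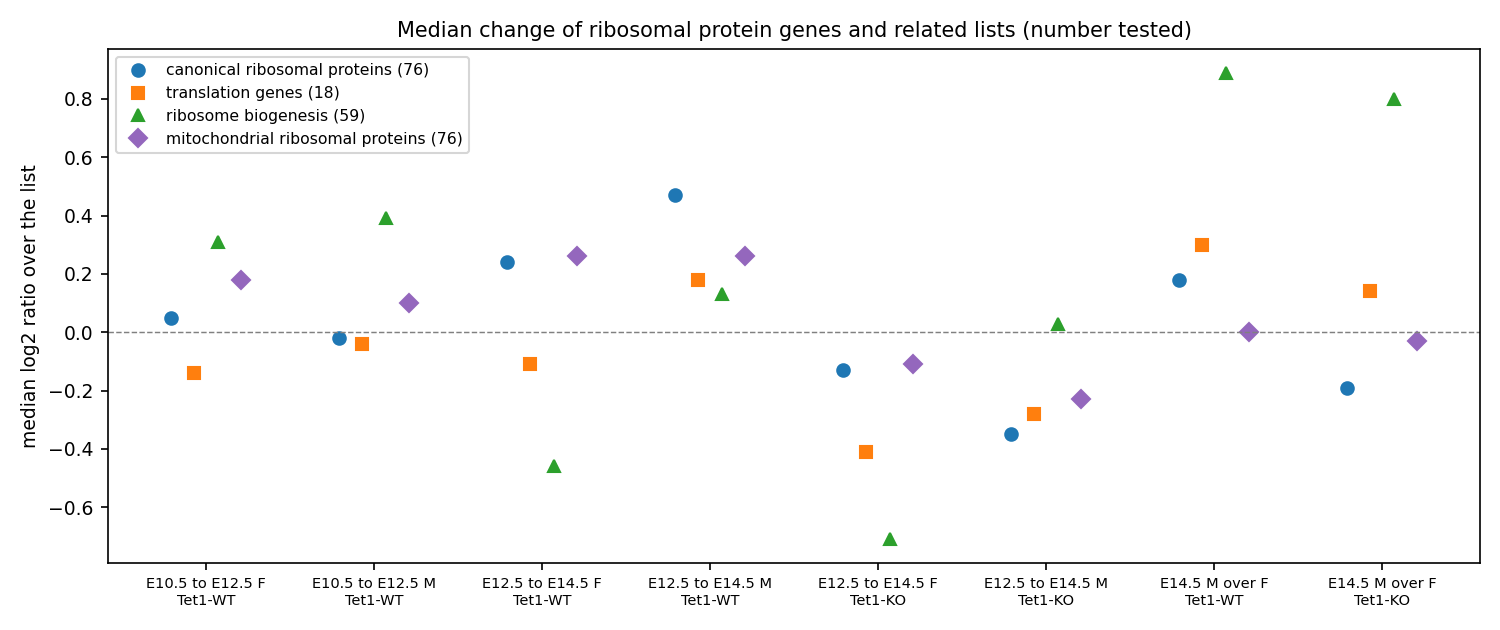
Median log2 ratio (vertical axis) over the canonical ribosomal protein genes and 3 related lists in 8 comparisons of stage or sex; M is male and F female, and each point is the median over the genes tested. In the E14.5 comparisons of males over females the biogenesis list lies at 0.89 and 0.80 and the ribosomal proteins at 0.18 and -0.19.

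Of 18 translation factors and TOP mRNAs outside the members, 6 were higher and none lower in E14.5 Tet1-WT males than in females (14% and 14.1% of all genes), with the smallest p for the RNA-binding protein Hnrnpa1 (2.50, adjusted p = 5.18e-07) and Naca, a chaperone of nascent chains (1.41). In Tet1-KO 3 were higher and none lower (11.6% and 7.43% of all genes), again with the smallest p for Hnrnpa1 (1.64). From E12.5 to E14.5 Hnrnpa1 fell by 2.56 in Tet1-WT females (by 2.32 without the second E12.5 library) and by 1.60 in Tet1-KO females. In Tet1-KO males 6 of the 18 fell and 1 rose over that step (4.87% and 5.5% of all genes), with the smallest p for Tpt1 (-0.98), Eif3f (-1.13) and Fau (-0.57). Fau, which encodes a fusion of a ubiquitin-like protein with a small subunit protein, was the one called gene of the list in Tet1-KO at E10.5 (0.45, adjusted p = 0.0465).

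Of growth control genes, 17 were tested. Eif4ebp1, the translation repressor that mTOR switches off, was higher in E14.5 Tet1-WT males by 2.40 (adjusted p = 1.26e-06) and fell in females from E12.5 by 2.00, or by 2.16 without the second E12.5 library. Trp53 was higher in males by 2.23, and 5 of the 17 were higher and none lower, against 14% and 14.1% of all genes. In Tet1-KO females at E14.5 4 of the 17 were higher than in Tet1-WT (3.36% of all genes), with the smallest p for Eif4ebp1 (1.61) and Trp53 (1.82), while no ribosomal protein gene was called there. Myc fell from E12.5 to E14.5 in both sexes of Tet1-WT, by 3.43 in males (adjusted p = 0.00282) and by 3.78 in females (adjusted p = 0.000733). The female value uses the second E12.5 library. Mitochondrial ribosomal protein genes, 76 of which were tested, moved both ways: 13 were higher and 16 lower in E14.5 Tet1-WT males (median 0), against 14% and 14.1% of all genes, with Mrps27 (1.71) and Mrpl34 (1.22) higher and Mrpl20 (-0.78) lower.

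The comparisons of stage and of sex in one genotype share libraries, so their values stand side by side and are not independent of each other. For the sex comparisons at E14.5, other cell types' markers also differed: the 8 supporting cell markers held 4.2 to 4.7 CPM in Tet1-WT females and 16.7 to 17.8 CPM in males, and 3.1 to 4.8 CPM against 36.3 to 56.2 CPM in Tet1-KO. Mesenchyme markers were at 44.9 to 51.6 CPM in Tet1-WT females and 105 to 116 CPM in males. Germ cell markers were at 5666 to 5877 CPM against 10946 to 11006 CPM. From E12.5 to E14.5 in Tet1-WT mesenchyme markers fell, with 15 of 15 called in females and 13 of 15 in males. In females germ cell markers were at 6954 to 7756 CPM at E12.5 and 5666 to 5877 CPM at E14.5, with 9 of 11 called lower and 0 higher. These female counts use the second E12.5 library. In males the handling genes held 170 to 395 CPM at E12.5 and 5.2 to 7.8 CPM at E14.5 with 3 of 5 called lower, and germ cell markers were at 5024 to 6080 CPM at E12.5 and 10946 to 11006 CPM at E14.5 with 4 of 11 called higher and 2 lower. The part of these markers in the members' values was not tested.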

How the data were processed

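RNA-seq of sorted mouse PGCs gave 22 libraries: 20 from the Tet1 cross and 2 from the MF1 cross. The deposited values were raw read counts per gene in 1 table per cross. Per the submitters' processing notes the tools were Trimmomatic, TopHat2 2.0.2, Bowtie 0.12.8 and HTSeq 0.5.3p9 with build mm9, and per the labels' protocols cDNA had been amplified for 15 cycles. The E12.5 and E14.5 Tet1-KO columns share header names (8 columns), so they were mapped to their group and carry no replicate number.

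Counts of the Tet1 cross were fitted with edgeR 4.0.16 (R 4.3.3): filterByExpr with a minimum count of 10 and a minimum total of 15, TMM scaling, 1 coefficient for each of 10 groups, robust quasi-likelihood tests and Benjamini-Hochberg adjustment over all 17567 genes tested. A gene was called at an adjusted p under 0.05. All 82 members passed the filter. The MF1 cross was fitted separately with E10.5 Tet1-WT. Symbols came from the gene annotation, and near-identical copies (95% identity over 80% of the coding sequence) from blastn 2.17.0. Alternatives were other scalings, no filter, DESeq2 1.42.0, only the groups compared, a replicate block and each library left out. Members summed with their copies, and related lists without the E12.5 female library that stood apart, were added after seeing the data. The edgeR fit of the Tet1 cross was tried on simulated counts, for the Tet1-KO comparisons in E14.5 females and males.

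In each comparison the text names the paralogue pairs, the X-linked and stalk genes where they bear on it, the called members of lowest p, at most 6 in each direction (with none called, the 2 largest differences each way), and up to 3 called genes of each related list. The members and lists were chosen with earlier results of these data known. Some members that this rule would name are not reported here.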

Additional observations from a re-analysis of the deposited data

Results flagged for a closer look

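For 7 members the change from E12.5 to E14.5 differed between the sexes of Tet1-WT, by a direct test of the difference (edgeR, adjusted p under 0.05). Each was more positive in males, and over all genes 6.26% were more positive and 5.85% more negative, so the count is close to the background. The difference in log2 change, male minus female, was 1.22 for Rpl5, 1.21 for Rpl39l, 0.88 for Rpl22l1, 0.85 for Rplp0, 0.76 for Rps25, 0.75 for Rpl6 and 0.67 for Rps14. Rpl5 passed with each of the 8 libraries left out in turn, and the other 6 did not. Groups of 2 libraries are too small to look for a single library far from the rest.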

How the results depend on the processing

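Groups of 2 libraries limit every comparison. Over 88 called values of named members, none of 1059 alternative values had the other sign, and 734 stayed past an adjusted p of 0.05. The numbers below count members called. DESeq2's size factors in edgeR gave 3 for E10.5 to E12.5 females. Library totals gave 9 and 2 for E12.5 to E14.5 in Tet1-WT females and males, 11 in Tet1-KO males, 26 for sex at E14.5 in Tet1-KO and 1 for the sex difference of the Tet1-KO effect. Without a filter there were 9 for Tet1-KO at E10.5, 3 and 6 at E12.5 in females and males, 6 in E14.5 males, 38 and 20 for E12.5 to E14.5 in Tet1-WT and Tet1-KO males, 1 for sex at E12.5, 20 for sex at E14.5 in Tet1-KO, 2 for the sex difference of the Tet1-KO effect and 6 for the MF1 cross. DESeq2's own test gave 6, 2, 2 and 4 for Tet1-KO at E10.5, E12.5 females, E12.5 males and E14.5 males, 23 and 31 for E12.5 to E14.5 in Tet1-WT females and males, 14 in Tet1-KO males, 2 for sex at E12.5, 28 and 24 for sex at E14.5 in Tet1-WT and Tet1-KO, 2 for the sex difference of the Tet1-KO effect and 21 for the MF1 cross. With only the groups compared there were 0 and 49 for Tet1-KO at E10.5 and in E12.5 males, 2 for E10.5 to E12.5 females, 2, 29 and 63 for E12.5 to E14.5 in Tet1-WT females, Tet1-WT males and Tet1-KO males, 31 and 20 for sex at E14.5 in Tet1-WT and Tet1-KO, and 3 for the sex difference of the stage change. The cause of these shifts was not tested.

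Same-numbered libraries did not deviate together (correlations from -0.03 to 0.05 over 15 pairs of groups). With 2 libraries a group each deviation is a single difference, so this cannot decide whether the numbers pair them. A replicate block gave 0 for Tet1-KO at E10.5, 2 for E10.5 to E12.5 females, 2 for E12.5 to E14.5 Tet1-WT males and 1 for the sex difference of the stage change. No paired analysis was possible because the E12.5 and E14.5 Tet1-KO columns carry no number, for comparisons that use them.

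Leaving out 1 library at a time gave 1 to 15 for Tet1-KO at E10.5, 0 to 41 in E12.5 females, and 0 to 0 in E12.5 males and in both sexes at E14.5. It gave 2 to 18 and 2 to 3 for E10.5 to E12.5 in females and males, 2 to 41 and 1 to 2 for E12.5 to E14.5 in Tet1-WT females and males, and 2 to 4 and 1 to 2 in Tet1-KO females and males. Sex gave 0 to 6 at E12.5, 8 to 13 in Tet1-WT and 3 to 11 in Tet1-KO at E14.5. The sex difference of the Tet1-KO effect gave 0 to 1, that of the stage change 1 to 18, and the MF1 cross 0 to 77. The median summed share was 7.97%, and 6.72% without the 5 highest members.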
